A study of Sus scrofa with 8 samples.

Results

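The peaks of 2 histone marks, H3K4me3 and H3K27ac, were compared for their width, the position of their summits and the kind of sequence they lie in. The members were the 2 H3K4me3 and the 2 H3K27ac libraries among the 8 samples of the series, and all their peaks on chromosomes 1 to 18 and X. These were 37495 and 43075 H3K4me3 peaks in replicates 1 and 2, and 74448 and 80531 H3K27ac peaks. Together they were 235549 peaks. The 6 peak lists held 322566 peaks on all chromosomes and scaffolds, the other lists being those of the DNA-binding protein CTCF. All libraries were ChIP-seq, which reads the DNA that an antibody retrieves with a histone mark, from untreated pig embryonic fibroblasts (PEFs) of Large White fetuses aged 35 days. The cells were isolated with collagenase and cultured for 24 h. The 2 marks were pulled down with different Abcam antibodies and had 1 histone input sample in common, so a mark and its antibody cannot be told apart. The sources used here do not say whether replicates came from separate cultures or fetuses, so the spread between them may be technical.

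H3K4me3 is trimethylation of lysine 4 of histone H3, which is set mainly at the starts of genes, above all where CpG dinucleotides are dense. H3K27ac is acetylation of lysine 27 of the same histone, which is placed by p300 and CBP at active promoters and at active enhancers, the distal elements that raise the transcription of a gene. Genes kept silent but poised in a cell can carry H3K4me3 without H3K27ac.

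A peak was put in the promoter class where its summit, the base of highest signal, lay within 1 kb of the transcription start site (TSS) of any of 28077 RefSeq genes of the Sscrofa11.1 assembly. Other peaks were intragenic where the summit lay inside a gene, and intergenic where it did not. The kinds of sequence under the marks are shown by 3 promoters and 3 intergenic H3K27ac regions, with each CpG in capitals. The promoters are the 200 bases before the TSS of COL1A1 (collagen I, both marks), EPCAM (an epithelial adhesion molecule, H3K4me3 only) and IPO5 (an importin whose marks had the summits farthest apart of the named protein-coding genes with both summits at the promoter in all libraries). They are written 5′ to 3′ on the strand of the gene, from COL1A1 at chr12:26397181-26397380 (minus strand), EPCAM at chr3:93185222-93185421 (minus) and IPO5 at chr11:67019099-67019298 (plus). They held 9, 28 and 25 CpGs.
COL1A1: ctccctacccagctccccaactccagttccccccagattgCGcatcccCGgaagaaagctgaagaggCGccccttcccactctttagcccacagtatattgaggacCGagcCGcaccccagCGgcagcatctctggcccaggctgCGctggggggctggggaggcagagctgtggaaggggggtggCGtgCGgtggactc
EPCAM: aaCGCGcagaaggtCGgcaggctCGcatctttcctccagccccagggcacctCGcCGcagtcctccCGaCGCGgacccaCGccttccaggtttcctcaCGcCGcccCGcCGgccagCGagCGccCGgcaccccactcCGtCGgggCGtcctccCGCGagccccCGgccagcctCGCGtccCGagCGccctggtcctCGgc
IPO5: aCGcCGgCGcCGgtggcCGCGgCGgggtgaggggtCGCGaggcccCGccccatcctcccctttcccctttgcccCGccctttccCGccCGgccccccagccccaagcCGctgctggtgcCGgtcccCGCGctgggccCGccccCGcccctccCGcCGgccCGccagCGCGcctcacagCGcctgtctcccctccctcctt

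The 3 regions were the intergenic H3K27ac peaks of highest mean fold enrichment among 9667 that were found in both replicates and met no H3K4me3 peak. The bases within 100 bp of their summits in replicate 1, on the plus strand of Sscrofa11.1, were at chr1:256353065-256353265, chr7:55112002-55112202 and chr7:39488127-39488327. They held 1, 0 and 2 CpGs, with a GC content of 42.8%, 36.3% and 40.3%, against 66.0%, 76.0% and 81.0% in the promoters.
region 1: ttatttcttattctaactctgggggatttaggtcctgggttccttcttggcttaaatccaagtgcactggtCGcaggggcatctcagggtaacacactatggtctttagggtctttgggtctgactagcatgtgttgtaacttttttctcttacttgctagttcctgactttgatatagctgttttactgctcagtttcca
region 2: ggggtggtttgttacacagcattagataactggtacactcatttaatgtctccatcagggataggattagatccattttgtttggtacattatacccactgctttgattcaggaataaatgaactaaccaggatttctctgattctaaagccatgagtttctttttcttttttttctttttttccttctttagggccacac
region 3: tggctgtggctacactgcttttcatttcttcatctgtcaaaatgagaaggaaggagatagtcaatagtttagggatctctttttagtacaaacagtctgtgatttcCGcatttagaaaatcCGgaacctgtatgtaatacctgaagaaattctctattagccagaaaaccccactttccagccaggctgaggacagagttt

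Region 1 lay 191.3 kb upstream of PAPPA, which encodes a protease of IGF-binding proteins. Its H3K27ac peaks were 11623 and 11642 bp wide, with a fold enrichment over the control of 57.5 and 49.0 in replicates 1 and 2. Region 2, 30.9 kb upstream of the replication gene TICRR, had fold enrichments of 47.5 and 42.4 and widths of 5592 and 4848 bp. It held 1 match to TGANTCA, the letters searched for AP-1 factors, and regions 1 and 3 held none. The match was TGATTCA, which is not one of the usual AP-1 sites, TGACTCA and TGAGTCA. Region 3, 103.8 kb downstream of the start of the splicing gene CDC5L, had fold enrichments of 42.6 and 40.04 and widths of 4187 and 3045 bp. The summits of the replicates were 13, 224 and 37 bp apart in regions 1 to 3.

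The deposited lists hold no read counts, so the depth behind a peak is unknown here and no counting interval is given. With 2 libraries against 2, the smallest two-sided p of an exact permutation test is 0.333, so no difference between the marks could pass 0.05. Values are given for each library, and a difference is described by whether the libraries of the marks overlap. H3K4me3 replicate 2 stood apart from replicate 1. The median fold enrichment of its promoter peaks was 23.7 against 50.2, and its promoter summits had a median GC content of 60.5% against 66.8%. The H3K27ac replicates were closer, with 15.1 and 17.5 for the fold enrichment and 64.1% and 65.4% for the GC content. Each result that turns on H3K4me3 replicate 2 is therefore given by replicate.

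The cells carried the marks at fibroblast genes. Of 16 fibroblast genes, 15 were found in the annotation by symbol, and 14 of these had a peak of both marks in all 4 libraries with at least 1 base within 1 kb of the TSS. All 12 housekeeping genes did. Of all 19487 protein-coding genes, 58.9% did. SPARC, which encodes a matrix protein, had H3K27ac peaks 18574 and 24456 bp wide, but an H3K4me3 peak only in replicate 1, of 469 bp. These H3K27ac peaks reached the annotated TSS, but their summits lay at −9051 and −9787 bp, where negative positions are upstream. The H3K4me3 peak had a fold enrichment of 3.68. Of 13 annotated genes of other cell types, such as ALB, CD3E, PTPRC, PECAM1 and INS, 9 had no peak in any library, and 27.5% of protein-coding genes had none. APOA1, an apolipoprotein of the liver, had small peaks of both marks, with a fold enrichment between 4.48 and 4.57 for H3K4me3 and between 8.07 and 10.4 for H3K27ac.

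H3K4me3 without H3K27ac was found at developmental factors. Of 10 annotated developmental and pluripotency factors, 7 had H3K4me3 in both libraries and 1 had H3K27ac in both. Of all protein-coding genes, 68.9% had H3K4me3 in both libraries and 60.7% had H3K27ac. At OLIG2, a factor of the oligodendrocyte lineage, the H3K4me3 peaks were 5640 and 9143 bp wide with fold enrichments of 20.6 and 13.4, and no H3K27ac peak was listed. At FOXA2, an endoderm factor, they were 3687 and 5177 bp wide. SOX2, a pluripotency and neural factor, had H3K4me3 peaks of 3699 and 3675 bp, and H3K27ac only in replicate 2, in a peak of 373 bp. NKX2-5, MYOD1 and NEUROG1, which direct heart, muscle and nerve cells, had H3K4me3 peaks with fold enrichments from 4.19 to 12.7 and no H3K27ac peak. PAX6, an eye and brain factor, was the exception, with H3K4me3 peaks of 11591 and 11666 bp and H3K27ac peaks of 10847 and 11152 bp. These H3K27ac peaks came within 1 kb of the TSS, but their summits lay 7499 and 7750 bp downstream. The H3K4me3 summits lay 7418 and 165 bp downstream in replicates 1 and 2. POU5F1, GATA1 and GATA4 had no peak of either mark. Of the genes of other cell types, 3 had H3K4me3 in both libraries and no H3K27ac peak. EPCAM had H3K4me3 peaks of 1695 and 1954 bp with fold enrichments of 42.7 and 20.6, and CDH1, epithelial cadherin, had peaks of 2031 and 1785 bp. The neuronal gene SYP had smaller ones, of 1101 and 431 bp with fold enrichments of 3.51 and 2.32. The epithelial keratin gene KRT5 had no peak of either mark.

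Over all protein-coding genes, 1608 (8.25%) had H3K4me3 in both libraries and H3K27ac in neither, and 283 (1.45%) had the reverse. The H3K4me3 peaks of the former were narrower and weaker than those of genes with both marks. Their median widths were 1577 and 1713 bp in replicates 1 and 2, against 2941 and 3115 bp, and their median fold enrichments 20.6 and 11.4, against 55.5 and 26.96. CpG-rich was taken to mean a GC content of at least 55% and an observed to expected ratio of CpG of at least 0.6 within 150 bp of the TSS. It held for 75.5% of the 11476 genes with both marks in all libraries, 62.4% of those with H3K4me3 only, 2.83% of those with H3K27ac only and 5.24% of those with no peak. The genes with H3K4me3 only were thus nearer to those with both marks, and the genes with H3K27ac only nearer to the unmarked genes.

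At fibroblast genes the H3K27ac peak was mostly the wider of the pair. Both H3K27ac peaks were wider than both H3K4me3 peaks at 9 of the 14 fibroblast genes with both marks and narrower at 2. Of the 11476 protein-coding genes with both marks, they were wider at 16.9% and narrower at 62.1%. Of the 12 housekeeping genes, they were wider at 5 and narrower at 3. The median width over the 14 fibroblast genes was 8489 and 8694 bp for H3K4me3 and 15786 and 13650 bp for H3K27ac. Over the 12 housekeeping genes it was 5658 and 5918 bp against 5440 and 4936 bp. At COL1A1, the H3K4me3 peaks were 9538 and 10344 bp wide and the H3K27ac peaks 19105 and 20750 bp. At COL3A1, collagen III, they were 12615 and 17364 bp against 41923 and 41141 bp. At PRRX1, a mesenchymal transcription factor, they were 18317 and 20437 bp against 58077 and 37236 bp. In these 3 genes the H3K4me3 and H3K27ac widths did not overlap. THY1, a surface marker of fibroblasts, went the other way, with 2335 and 2329 bp against 1704 and 1906 bp. POSTN, a matrix protein, did so too, with 1919 and 2112 bp against 1108 and 855 bp. At FN1, fibronectin, the H3K4me3 peaks at the annotated TSS were 620 and 604 bp wide, and the H3K27ac peaks 23079 and 5415 bp. The H3K4me3 peaks there were weak, with fold enrichments of 3.13 and 5.38. The H3K27ac summits lay away from the TSS, at 5320 and −2779 bp (negative is upstream), with fold enrichments of 30.5 and 7.46.

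**Figure D1:**
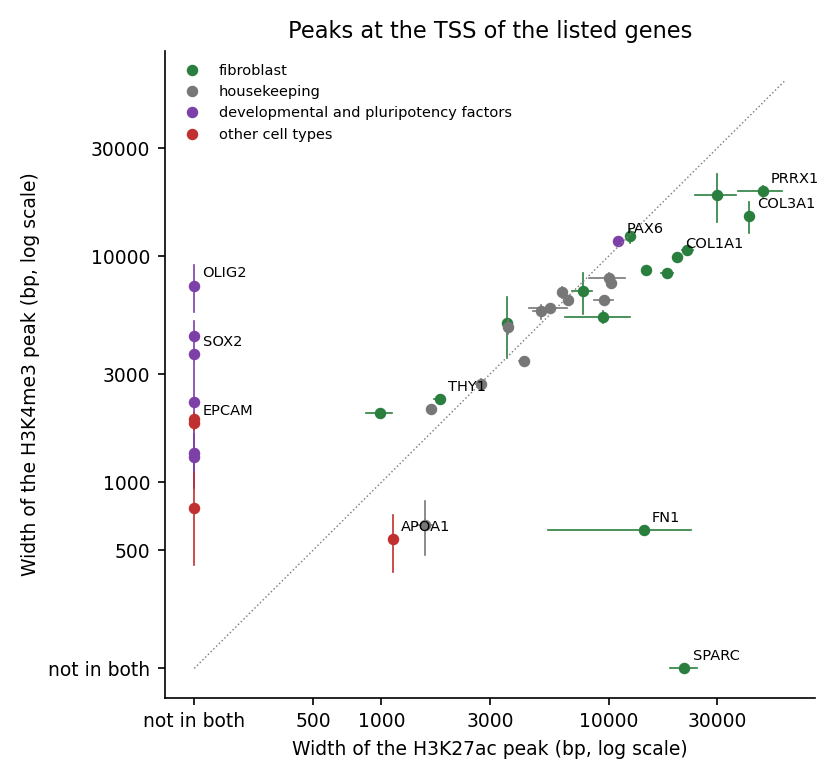
Width of the peak of each mark at the TSS, for listed genes with a peak, on log axes. The peak is the strongest with a summit within 1 kb of the TSS, or otherwise the strongest with any base there. Points are means of the 2 replicates, lines join the replicates, "not in both" marks genes without a peak in both libraries, and genes below the dotted line of equal width have the wider H3K27ac peak, as COL1A1 and COL3A1 do.

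Over all peaks, the median widths of the marks overlapped. The H3K4me3 libraries had 1183 and 1194 bp, against 1270 and 1147 bp for H3K27ac, so the libraries overlapped (exact permutation p = 1.0, two-sided). They did not overlap, with H3K27ac wider, under 3 other choices of peaks. H3K4me3 minus H3K27ac was −171 bp with a −log10 q of at least 5, −153 bp with peaks less than 1 kb apart joined and −797 bp with the 30000 strongest peaks of each library. They differed within the genomic classes, in opposite directions. Promoter peaks were wider for H3K4me3, at 2526 and 2547 bp against 2180.5 and 2163 bp, a difference of 364.75 bp between means (exact permutation p = 0.333). Intergenic peaks were narrower for H3K4me3, at 757 and 849 bp against 1164 and 1050 bp, a difference of 304 bp (exact permutation p = 0.333). Intragenic widths overlapped, at 903 and 1031 bp against 1139 and 1012 bp. The ratio of the promoter to the intergenic median was 3.17 ± 0.238 (SD, n = 2) for H3K4me3 and 1.97 ± 0.132 for H3K27ac, and the libraries did not overlap (exact permutation p = 0.333).

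**Figure D2:**
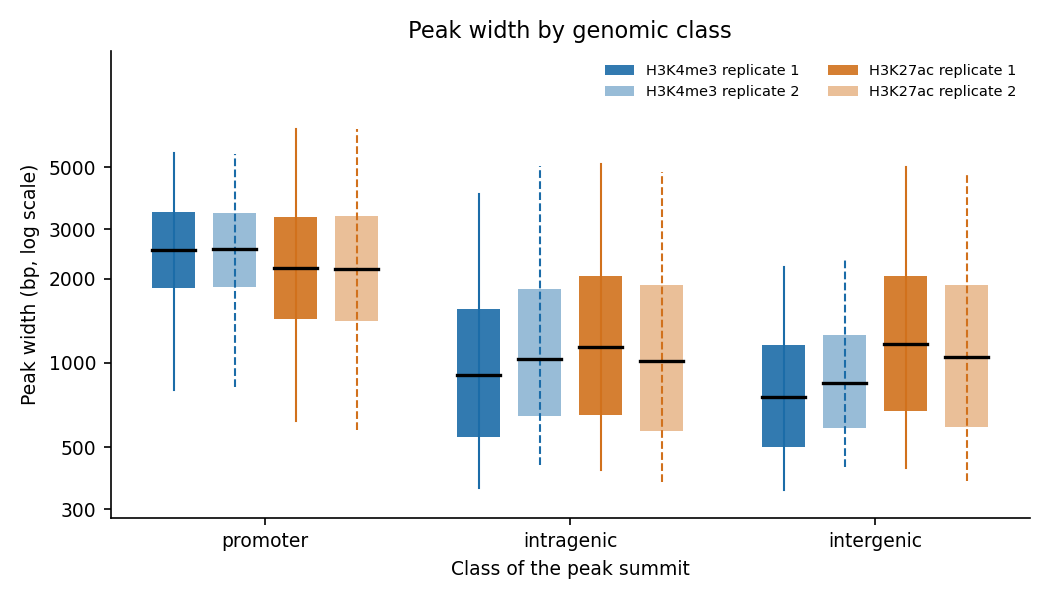
Peak width in bp on a log axis by the class of the summit. Boxes span the 25th to 75th percentile of peaks, black lines are medians and thin lines span the 5th to 95th percentile, and the medians of H3K4me3 lie above those of H3K27ac in the promoter class and below them in the intergenic class.

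Width went with fold enrichment in every library and class, with a Spearman rank correlation across peaks from 0.515 to 0.787 as a description. The marks also differed in enrichment at promoters, where the medians were 50.2 and 23.7 for H3K4me3 and 15.1 and 17.5 for H3K27ac. Among promoter peaks with a fold enrichment from 20 to 40, H3K4me3 peaks were the narrower, at 2154 and 2905 bp against 3313 and 3049 bp. From 10 to 20 the libraries overlapped, at 1407 and 2144 bp against 2239 and 2065 bp. From 5 to 10 they were 917 and 1245 bp against 1418 and 1292 bp. Thus the greater width of H3K4me3 promoter peaks was not seen at equal fold enrichment between 5 and 40. The median of 50.2 in H3K4me3 replicate 1 lies above this range, so most of its promoter peaks were not compared. Among intergenic peaks from 20 to 40, the widths were 1573 and 2261 bp for H3K4me3 and 5049 and 4536 bp for H3K27ac, a larger gap than over all intergenic peaks. With the 30000 peaks of highest −log10 p in each library, the promoter difference fell to 154 bp and the intergenic one (H3K4me3 minus H3K27ac) moved to −1271 bp.

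The widest peaks were mainly H3K27ac. Peaks of at least 10 kb were 112 of 37495 and 188 of 43075 for H3K4me3, and 848 of 74448 and 809 of 80531 for H3K27ac. The share of peaks of at least 5 kb was 3.93% and 4.54% for H3K4me3 against 5.92% and 5.27% for H3K27ac. The 95th percentile of width was 4625 and 4830 bp against 5396 and 5117 bp (exact permutation p = 0.333). The widest H3K27ac peaks found in both replicates were 63625 and 63725 bp wide and lay over KMT2E, a gene related to the H3K4 methyltransferases, on chromosome 9 with 49.3-fold and 30.8-fold enrichment. KMT2E was chosen after the values were seen. Of the H3K27ac peaks of at least 10 kb, 22.9% and 25.6% were in the promoter class, against 13.6% and 13.1% of all H3K27ac peaks. For H3K4me3 it was 44.6% and 31.9%, against 31.0% and 24.3% of all.

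The genomic classes were filled differently by the marks. The promoter class held 31.0% and 24.3% of H3K4me3 peaks and 13.6% and 13.1% of H3K27ac peaks, a difference of 14.3 percentage points between means (exact permutation p = 0.333). The intragenic class held 43.6% and 48.5% against 59.0% and 60.2% (exact permutation p = 0.333). The intergenic class held 25.3% and 27.2% against 27.3% and 26.8%, and the libraries overlapped (exact permutation p = 0.667). They did not overlap, with H3K4me3 lower, among peaks with a −log10 q of at least 5, peaks found in both replicates or the 30000 strongest peaks, at differences of −3.30, −3.10 and −2.39 percentage points. By covered bases, the promoter class held 50.9% and 38.9% of H3K4me3 and 19.99% and 20.5% of H3K27ac. In number, promoter peaks were alike, with 11637 and 10473 for H3K4me3 and 10142 and 10538 for H3K27ac, so the larger H3K27ac lists differed in their peaks away from promoters. With 30000 peaks in each library, the difference in promoter share fell to 6.40 percentage points.

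An H3K4me3 peak of 2 to 5 kb was usually at a promoter and an H3K27ac peak of that width usually not. Of H3K4me3 peaks under 500 bp wide, 3.72% and 3.09% were in the promoter class, much as for H3K27ac at 3.17% and 2.76%. From 3 to 5 kb, 74.0% and 59.9% of H3K4me3 peaks were, against 26.96% and 28.1% of H3K27ac peaks. The median summit lay 8.34 and 12.4 kb from the nearest TSS for H3K4me3 and 23.9 and 23.3 kb for H3K27ac.

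**Figure D3:**
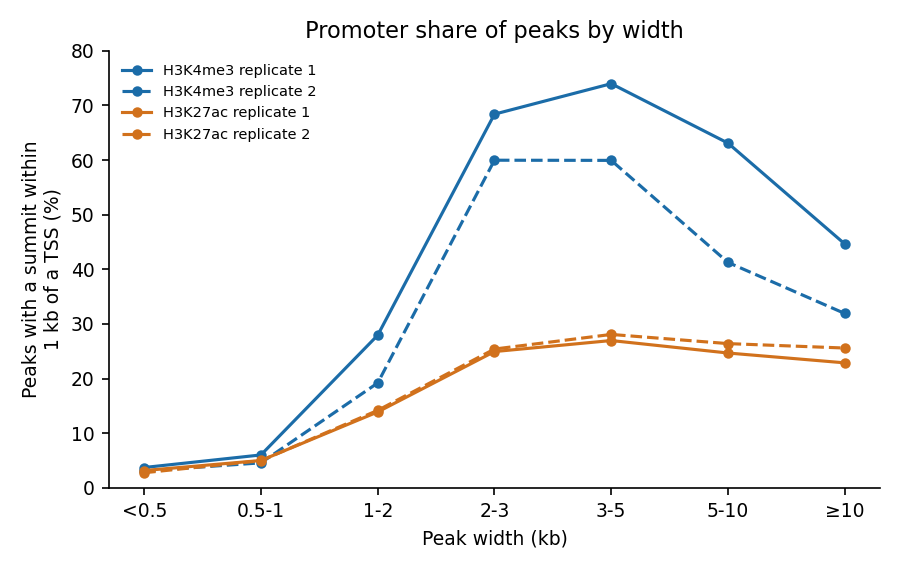
Share of peaks in the promoter class (%) by peak width in kb, with a line for each library. The H3K4me3 lines rise to 74.0% and 59.9% at 3 to 5 kb and the H3K27ac lines stay below 30%.

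Within genes, H3K4me3 summits lay nearer to the start. The 20% of the gene next to its start held 26.8% and 28.7% of intragenic H3K4me3 summits and 20.1% and 19.7% of those of H3K27ac. From 1 to 5 kb into the gene, just past the promoter limit, lay 17.0% and 18.4% against 7.67% and 7.76%. Whether these summits belong to peaks that start at the promoter was not tested. Exons held 19.5% and 15.5% against 9.41% and 10.1%. Most promoter peaks of both marks belonged to protein-coding genes, from 88.1% to 90.3% by library. Promoter peaks of lncRNA genes were narrower than those of protein-coding genes in all 4 libraries, with medians from 1753 to 1889 bp against 2210 to 2591 bp.

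Both marks had their summits downstream of the TSS, H3K4me3 more often. Of promoter summits, 84.8% and 80.6% lay downstream for H3K4me3 and 74.6% and 76.4% for H3K27ac, a difference of 7.25 percentage points between means (exact permutation p = 0.333). With the starts of all annotated transcripts in place of the gene's start, the shares were 81.6% and 79.2% against 71.1% and 71.8%. The fullest 50 bp of distance lay from 250 to 300 bp downstream in H3K4me3 replicate 1 and both H3K27ac libraries, and from 350 to 400 bp in H3K4me3 replicate 2. Few summits lay at the TSS itself, with 6.33% and 6.71% of H3K4me3 and 6.69% and 6.95% of H3K27ac promoter summits within 100 bp of it (exact permutation p = 0.667). With transcript starts the shares were 12.5% and 10.9% against 12.1% and 13.0%.

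A second, smaller group of summits lay upstream of the TSS and was fuller for H3K27ac. From 400 to 150 bp upstream lay 6.46% and 6.80% of H3K4me3 and 11.4% and 10.8% of H3K27ac promoter summits. Between the groups, the emptiest 50 bp lay from 100 to 50 bp upstream of the TSS, or from 150 to 100 bp in H3K4me3 replicate 2. In that library 37.8% of promoter summits lay more than 500 bp downstream, against 23.9% in replicate 1 and 19.6% and 17.7% for H3K27ac. The median distance of promoter summits from the TSS, 351 and 453 bp for H3K4me3 and 340 and 321 bp for H3K27ac (exact permutation p = 0.333), differed by 20.5 bp between means without that library.

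**Figure D4:**
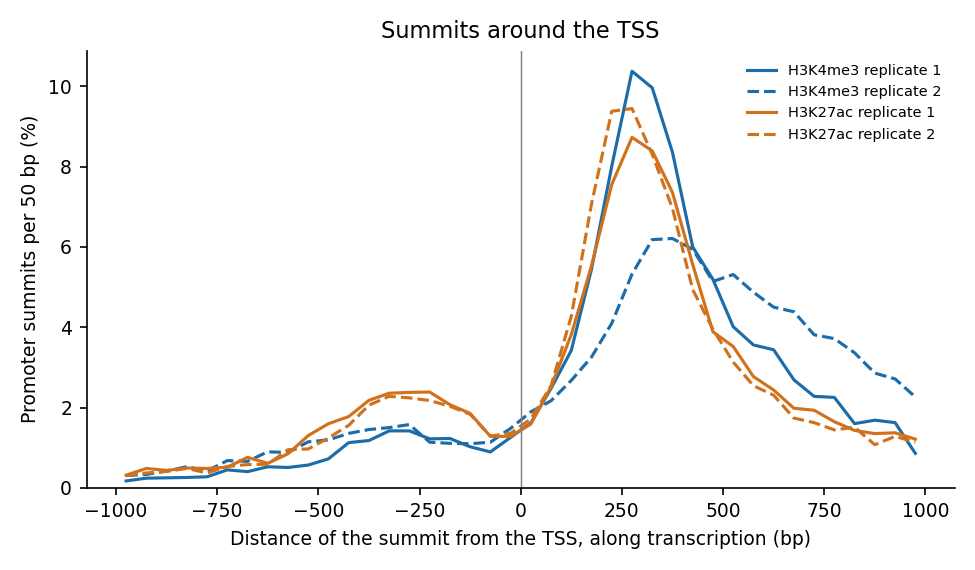
Share of promoter summits (%) in each 50 bp of distance from the TSS in bp, positive along transcription, with a line for each library. Between the upstream and downstream groups, summits are fewest just upstream of the TSS. The upstream group is higher for H3K27ac, and H3K4me3 replicate 2 reaches farther downstream.

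The 2 marks could be compared gene by gene at 6937 genes with a promoter summit of both marks in all 4 libraries, 6374 of them protein-coding. Their H3K4me3 peaks reached a median of 777 and 823 bp upstream and 1634 and 1709 bp downstream of the TSS. The H3K27ac peaks reached 692 and 693 bp upstream and 1228 and 1255 bp downstream, so the marks differed more on the side of the gene body. At 1 kb downstream, 88.8% and 89.8% of the genes were covered by H3K4me3 and 66.2% and 66.9% by H3K27ac. The H3K4me3 peak was the wider in all 4 pairs of libraries at 4648 genes (67.0%), and the H3K27ac peak at 1003 (14.5%).

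**Figure D5:**
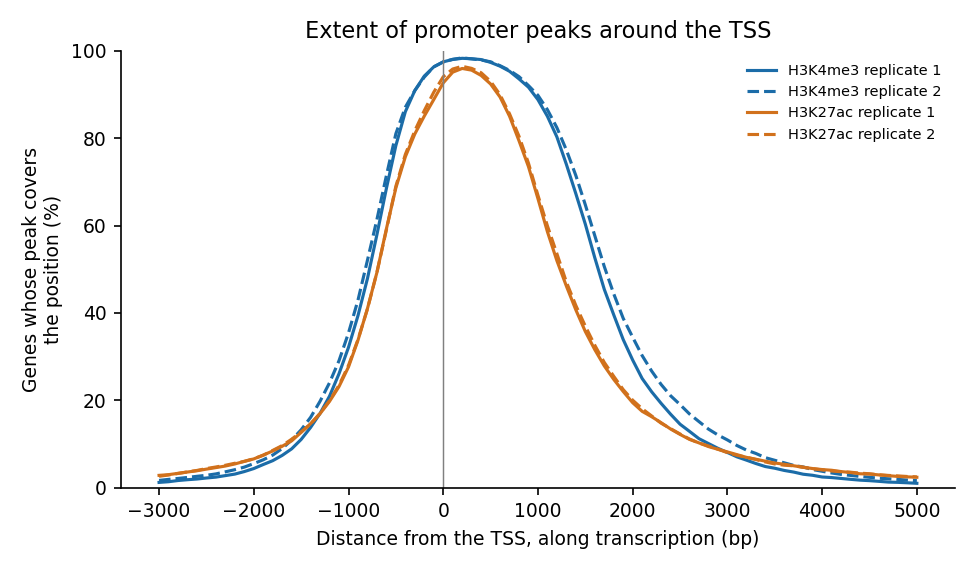
Share of the 6937 genes (%) whose promoter peak covers each position, by distance from the TSS in bp along transcription, with a line for each library. The lines of the marks lie close upstream and part downstream, where at 1 kb H3K4me3 covers 88.8% and 89.8% and H3K27ac 66.2% and 66.9%.

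At these genes the H3K27ac summit lay slightly upstream of the H3K4me3 summit. The median offset was −29 and −39 bp from H3K4me3 replicate 1 to H3K27ac replicates 1 and 2, and −120 and −129 bp from H3K4me3 replicate 2. The offset between the H3K4me3 replicates was 63 bp and that between the H3K27ac replicates −3 bp, so the offset from H3K4me3 replicate 1 was smaller than the spread between the H3K4me3 replicates. The H3K27ac summit was upstream in all 4 pairs at 2860 genes (41.2%) and downstream in all 4 at 759 (10.9%). Both marks were downstream of the TSS in all libraries at 4739 genes (68.3%). At 639 genes (9.21%) H3K4me3 was downstream and H3K27ac upstream in both replicates, and at 114 (1.64%) it was the reverse.

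Single genes among these show how far the marks could part at a promoter, and were chosen for it, so they are given with no test. At IPO5, the H3K4me3 summits lay at 562 and 821 bp and the H3K27ac summits at −992 and −988 bp, where negative positions are upstream of the TSS. CTPS1, a CTP synthase, and GPRC5C, an orphan receptor, had the same arrangement, with H3K4me3 at 693 and 828 bp in CTPS1 and 935 and 985 bp in GPRC5C, and H3K27ac at −872 and −888 bp and at −593 and −696 bp. In the opposite arrangement, SCAF11, a splicing-related gene, had its H3K4me3 summits at −615 and −626 bp and its H3K27ac summits at 645 and 595 bp. COL16A1, a fibril-associated collagen, had H3K4me3 at −425 and −384 bp and H3K27ac at 689 and 663 bp. RRM2B, a subunit of ribonucleotide reductase, had them at −562 and −559 bp and at 575 and 452 bp. In these 6 genes each mark kept its side of the TSS in both replicates. That follows largely from their choice, by the largest offsets between summits that all lay within 1 kb of the TSS.

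Among the protein-coding genes with promoter summits of both marks in all 4 libraries, with genes of LOC names left out, and with widths that did not overlap between the marks, the largest ratios of H3K4me3 to H3K27ac width were at the cell adhesion gene CADM1 (8.81), the transcription factor SP8 (7.40) and the neuronal factor NPAS1 (7.36). At CADM1 the H3K4me3 peaks were 3701 and 4077 bp wide with fold enrichments of 56.3 and 31.3, and the H3K27ac peaks were 390 and 493 bp wide with 5.18 and 5.50. At SP8 they were 4784 and 5158 bp against 550 and 794 bp, and at NPAS1 2714 and 4090 bp against 390 and 535 bp. The fold enrichment of H3K27ac was between 2.73 and 5.50 at all 3 genes. The smallest ratios among them were at PLEKHG4 (0.167), the ubiquitin ligase TRIM56 (0.209) and DIRC1 (0.235). At PLEKHG4 the H3K4me3 peaks were 424 and 479 bp wide and the H3K27ac peaks 2622 and 2796 bp. At TRIM56 they were 2962 and 2602 bp against 13270 and 13340 bp, and at DIRC1 569 and 2789 bp against 8910 and 5354 bp.

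The highest H3K4me3 fold enrichments at the promoters of the protein-coding genes with both marks in all libraries, averaged over the replicates, were at GABARAP, of the autophagy machinery, ZSCAN2, a zinc finger protein, and MAGOH, of the exon junction complex. They were 100.1 and 48.5 at GABARAP, 103.4 and 44.1 at ZSCAN2, and 88.9 and 57.4 at MAGOH. The H3K27ac peaks there had 41.3 and 50.7, 16.3 and 17.4, and 23.1 and 23.1. The mean offset of the H3K27ac from the H3K4me3 summits was upstream in all 3, at −91, −146 and −138.5 bp.

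Peaks of H3K4me3 mostly met a peak of H3K27ac, and not the reverse. With the same replicate number set against each other, 75.01% and 75.6% of H3K4me3 peaks overlapped an H3K27ac peak by at least 1 bp, and 36.0% and 39.6% of H3K27ac peaks overlapped an H3K4me3 peak (exact permutation p = 0.333). With 30000 peaks in each library the shares were 61.8% and 63.2% against 59.0% and 61.5%, so the lengths of the lists moved with this difference. In the promoter class, 83.8% and 84.6% of H3K4me3 and 94.9% and 94.5% of H3K27ac peaks had a partner. Of intergenic peaks, 63.4% and 63.9% of H3K4me3 and 28.1% and 33.5% of H3K27ac peaks did.

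Which mark enclosed the other depended on the class of the H3K4me3 peak. In the promoter class, the H3K27ac peak lay wholly inside the H3K4me3 peak in 50.4% and 58.4% of overlapping pairs and the reverse held in 13.2% and 11.0%. In the intergenic class, the H3K4me3 peak lay inside the H3K27ac peak in 65.5% and 59.5% of pairs and the reverse held in 14.2% and 16.6%. H3K27ac peaks with a partner were the wider and stronger ones in all classes. At promoters they had medians of 2247 and 2232 bp, against 940 and 823 bp without a partner, and fold enrichments of 15.7 and 18.3 against 3.85 and 3.96. Intergenic ones had medians of 1724 and 1624.5 bp with a partner and 1013 and 860 bp without, and fold enrichments of 8.19 and 7.65 against 4.17 and 4.05.

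Summits of overlapping peaks of different marks were 169, 150, 241 and 245 bp apart (medians of the 4 pairs of libraries, the first 2 with H3K4me3 replicate 1). Within a mark, the replicates were 122 bp apart for H3K4me3 and 112 bp for H3K27ac, and the CTCF replicates, whose source is a point on the DNA, were 16 bp apart. All 4 distances between marks were above those within marks. In the promoter class the order did not hold, with 130 and 115 bp between the marks for H3K4me3 replicate 1, against 148 bp between the H3K4me3 replicates. Summits sat nearer to the middle of the peak for H3K4me3. The median distance from the middle, relative to the distance from the middle to the edge, came to 0.234 and 0.255 for H3K4me3, against 0.314 and 0.318 for H3K27ac (exact permutation p = 0.333).

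Outside promoters, CpG-rich summits were more frequent for H3K4me3 over all peaks, while the median GC content of intergenic summits overlapped. The GC medians were 52.2% and 46.8% for H3K4me3 against 45.8% and 47.5% for H3K27ac. Within 150 bp of the summit, 19.2% and 12.6% of intergenic H3K4me3 peaks were CpG-rich against 4.17% and 4.49% of H3K27ac peaks. Of intragenic peaks, 22.7% and 13.8% were, against 4.99% and 5.43%. At 5 kb from the intergenic summits, 3.68% and 3.01% and 2.09% and 2.32% were. At promoters the libraries overlapped, with 70.5% and 46.7% against 60.8% and 65.4%, the lowest value being that of H3K4me3 replicate 2. Intergenic H3K27ac peaks without an H3K4me3 partner were CpG-rich in 0.608% and 0.810% of cases, and those with a partner in 13.3% and 11.8%.

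The shares of windows with TGANTCA, which was searched on both strands, overlapped between the marks. The letters were in 12.4% and 14.8% of intergenic H3K4me3 and 14.0% and 14.0% of intergenic H3K27ac windows, and in 9.39% to 11.0% of windows 5 kb away. They were rarer at promoter summits, in 2.78% and 4.01% against 3.99% and 3.76%, and in 6.35% of windows of the same length around the TSSs of 28074 genes. Among intergenic H3K4me3 peaks, they were in 14.5% and 16.8% of those with an H3K27ac partner and in 8.86% and 11.2% of those without. Intergenic H3K27ac peaks went the other way in both replicates. Of those without an H3K4me3 partner, 15.2% and 14.9% held the letters, and those with a partner held them less often.

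Chromosomes differed in the balance of the marks. H3K27ac peaks outnumbered those of H3K4me3 on all 19 chromosomes, from 1.52 times on chromosome X to 2.36 times on chromosome 13 (means of replicates). The promoter share of H3K4me3 peaks was highest on chromosome X, at 42.0% and 34.4%, as was that of H3K27ac, at 21.3% and 21.4%.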

How the data were processed

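ChIP-seq peak lists of 2 H3K4me3 and 2 H3K27ac libraries of PEFs were analysed, grouped by the sample labels. The authors aligned the reads to Sscrofa11.1 with Bowtie2, took out duplicates (Picard) and ran MACS2 for narrow peaks, library by library, against the input. Each deposited peak has its start and end, a score, the fold (ratio) of the signal to the control, the −log10 of its p-value and q-value, and the offset of its summit. The study's methods give a q-value of 0.01, whereas the weakest peaks of the 4 lists have a −log10 q between 1.30 and 1.32, and 1.16% to 3.06% of their peaks lie above it. The lists were used as deposited. Input libraries have no peak list here. CTCF lists were used only for the distance between replicate summits.

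Genes were taken from the RefSeq annotation of Sscrofa11.1, whose chromosome names and lengths hold all peaks. Peaks on chromosome Y and on scaffolds (431 to 620 per library) were left out. Tests were exact permutation tests over libraries, two-sided. Genes were named from 4 lists (fibroblast, housekeeping, developmental, other cell types) and as the 3 most extreme for H3K4me3 fold enrichment, width ratio and summit offset among protein-coding genes without LOC names and with promoter summits of both marks in all 4 libraries, for the ratio and offset only where the marks did not overlap. Symbols that matched no gene or more than 1 (4 of 54) were left out. At list genes, widths were of the strongest peak with its summit within 1 kb of the TSS and nearest to that gene. Where no such peak existed, the strongest peak with any base within 1 kb was used. For the counts of wider and narrower peaks at list genes and all protein-coding genes, the strongest peak with any base within 1 kb was used throughout. Members, lists and tests were chosen with earlier results of these data known. Alternatives changed the peaks kept, the TSS set, the promoter distance and the overlap. Functions for classes, distances and overlaps were tested on simulated peaks. Python 3.11.15, pandas 2.3.3, numpy 2.4.6 and pysam 0.24.0 were used.

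Deviations of same-numbered libraries from the mean of the mark were not positively correlated. The correlations were −0.0121 for peak number in 29911 bins of 50 kb, and −0.212 for log2 fold enrichment and −0.0581 for summit position at 6937 TSSs. Whether libraries of the same number were prepared together cannot be told from these values.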

Additional observations from a re-analysis of the deposited data

Results flagged for a closer look

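The difference in median peak width between H3K4me3 and H3K27ac changed sign between genomic classes. It was 364.75 bp in promoter peaks, with both H3K4me3 libraries above both H3K27ac libraries, and −304.0 bp in intergenic peaks, with both below. The ratio of the promoter to the intergenic median differed by 1.20 between the marks (exact permutation p = 0.333, the smallest that 2 libraries against 2 can give), so the change of sign could not pass a test. Fold enrichment moved with width, and its part in the difference was not tested beyond the values at equal fold enrichment in the report.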

How the results depend on the processing

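With 2 libraries for each mark, no alternative could pass a threshold, and only directions and sizes can be compared. Of 166 alternative values that kept all libraries, 158 kept the direction, 7 reversed and 1 was 0 (the GC content of promoter summits with 500 bp). The difference (H3K4me3 minus H3K27ac) reversed with a promoter distance of 500 bp for the intragenic width (27 bp) and the share within 100 bp of the TSS (1.33 points). With 5 kb it reversed for the distance to the TSS (−11.5 bp), the share within 100 bp (0.330 points), and the GC content (1.495 points) and CpG ratio (0.0545) of promoter summits, and the share of promoter summits with TGANTCA moved to −1.43 points. With 30000 peaks per library the share within 100 bp reversed (0.307 points). The intragenic width moved to −350.25 bp at −log10 q of at least 5, −1218 bp with 30000 peaks and −245 bp with joined peaks. The cause was not tested.

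Leaving out 1 library gave ranges that cross 0 for the median width (−81.5 to 41.5 bp, reversed without H3K27ac replicate 1), the intergenic share (−1.70 to 0.187 points), and the TGANTCA share of promoter (−1.10 to 0.135 points) and intergenic summits (−1.59 to 0.761 points), reversed without H3K4me3 replicate 1. They also do for the GC content (−4.32 to 1.99 points) and CpG ratio (−0.0795 to 0.0146) of promoter summits, reversed without H3K4me3 replicate 2. The distance of promoter summits to the TSS ranged from 20.5 to 122.5 bp, the lowest without H3K4me3 replicate 2 and the highest without replicate 1.

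A block by replicate number leaves each difference between means unchanged by arithmetic, for example 364.75 bp for promoter width, so it is no check of the size. The smallest p of a replicate block is 0.5. The same holds for the crossed pairing. It was chosen after seeing the data because same-numbered libraries tended to deviate in opposite directions in fold enrichment at TSSs. The offset of the summits at a TSS went from −74 to −34.4 bp with 500 bp. The values of promoter share with 500 bp (7.97 points) and of overlap of at least 50% of both peaks (20.5 points) were smaller than the main ones by over 1.5 times. Other falls were larger. With 30000 peaks per library, the difference in overlap fell to 2.275 points, in promoter share to 6.40 points and in intragenic share to −4.01 points. With 500 bp, the difference in distance to the TSS fell to 22 bp.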
